A study of Mus musculus with 18 samples.

Results

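The poly(ADP-ribose) polymerases and the other enzymes that break NAD were described in single mouse oocytes. The genes were 9, chosen by symbol: Parp1, Parp2, Parp3, Parp4, the tankyrases Tnks and Tnks2, the glycohydrolase Parg, and the NADases Cd38 and Sarm1. All 9 were among the 47069 gene identifiers of the deposited tables, and 6 of them passed a filter on low counts that kept 12161 genes. Parp3, Cd38 and Sarm1 did not pass it.

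The study sequenced oocytes at the germinal vesicle stage (GV, the immature oocyte with an intact nucleus) and at metaphase II (MII, the mature egg). Mice were of the strain C57BL/6JAusb. Young controls were 4 weeks old and aged controls 12 months old, and both drank water without nicotinamide mononucleotide (NMN), the NAD precursor. Aged NMN mice, also 12 months old, drank water with NMN at 2 g/L for 4 weeks. No genotype or other agent is given for any group. Each library came from the supernatant over the pelleted nucleus of 1 oocyte, leaving the nucleus behind, and the labels name no animals. Of 18 libraries 16 were used: 2 GV young, 2 GV aged and 3 GV NMN oocytes, and 3 MII oocytes in each of the 3 groups. GV aged 2-2 held 5009 counts and none for the 9 genes, and was left out. The tables titled GV young 1 and GV young 2-1 were identical and were counted as 1 oocyte, called GV young 1 here.

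PARP enzymes cleave NAD and attach its ADP-ribose unit to proteins, releasing nicotinamide. Parp1, Parp2 and Parp3 encode nuclear enzymes switched on by DNA breaks, and the tankyrases act on telomeres, the mitotic spindle and Wnt signalling. Parg encodes the hydrolase that cuts poly(ADP-ribose) chains, so it consumes the product rather than NAD. Cd38 and Sarm1 encode NAD glycohydrolases best known from immune cells and from degenerating axons. NMN is a direct precursor of NAD, the substrate of all of these enzymes except PARG. Fully grown oocytes are largely silent in transcription, and stored RNAs are translated or degraded during maturation.

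The upstream sequences of Parp1 and Parp3 are shown because these 2 genes of the same enzyme class had opposite outcomes, a count in 15 of 16 oocytes and in 0 of 16. RefSeq (GRCm38.p6) gives 250 bases upstream of the start for 8 of the 9 genes, all except Tnks. Each line is written 5′ to 3′ on the gene's strand, with CpG pairs in capitals.
Parp1, chr1:180568641-180568890 (+): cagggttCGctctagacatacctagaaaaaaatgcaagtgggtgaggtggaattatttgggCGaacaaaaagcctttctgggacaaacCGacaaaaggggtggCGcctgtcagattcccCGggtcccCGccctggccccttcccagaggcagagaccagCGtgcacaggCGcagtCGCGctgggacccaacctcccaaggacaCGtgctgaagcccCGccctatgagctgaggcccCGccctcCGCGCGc
Parp3, chr9:106476950-106477199 (-): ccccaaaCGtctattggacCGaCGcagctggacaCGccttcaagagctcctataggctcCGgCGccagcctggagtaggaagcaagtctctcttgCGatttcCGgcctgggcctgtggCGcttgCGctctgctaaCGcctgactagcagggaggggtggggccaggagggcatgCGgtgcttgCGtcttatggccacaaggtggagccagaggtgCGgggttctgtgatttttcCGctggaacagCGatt
Each of these windows held 16 CpG pairs, against a median of 6 over 32851 promoters of the same length, and their GC content was 61.6% and 61.2%. GGGCGG, searched on both strands, was found in the Parp1 window and in 32.7% of all promoters. CCAAT was found in the Parp3 window and in 33.8% of all promoters. TATAAA was in neither window and in 12.4% of all promoters. The window of Cd38 held 1 CpG pair, and those of Parp2, Parp4, Tnks2, Parg and Sarm1 held 13 to 28. Whether the CpG count goes with detection was not tested.

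One more sequence is shown because it belongs to the transcript on which the Tnks2 counts of 4 oocytes were deposited. It is the end of ENSMUST00000168654, a Tnks2 transcript of 622 bases annotated as a retained intron (GRCm38 chr19:36880573-36887373, + strand, 5 exons). The capitals mark the bases lying in stretches of 50 bases that also occur in transcripts of 54 other genes.
Tnks2, chr19:36887220-36887373 (+): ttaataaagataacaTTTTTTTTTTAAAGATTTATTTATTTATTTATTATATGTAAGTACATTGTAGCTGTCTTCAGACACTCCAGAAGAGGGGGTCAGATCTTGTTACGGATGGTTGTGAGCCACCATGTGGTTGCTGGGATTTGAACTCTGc
These capitals cover 138 of the 622 bases. The full Tnks2 mRNA, of 6481 bases, shares no such stretch.

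Counts are given as CPM, a share of the library's counts after scaling between libraries, and levels between genes as TPM, a share after dividing by transcript length. Totals ran from 2756181 to 5586894 counts per oocyte (median 3947706), and 3 counts, the smallest number read as detection, were worth 0.537 to 1.09 CPM. Because no label separates animals, no p-value was computed and the spread between oocytes may be technical or biological. A gene was counted as higher or lower where the group means, each plus 1 CPM, differed at least 2-fold and no oocytes of the 2 groups overlapped. The share of all 12161 genes that met the same rule is given for each comparison. All intervals cover counting error only.

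The 12 oocyte markers had a summed level of 12790 to 63197 CPM per library. The lists for other cells had low sums: cumulus and granulosa cells 0 to 300.5 CPM, immune cells 0 to 236.9, endothelial cells 5.27 to 62.2, theca and stroma 0 to 15.9, and erythroid cells 0 to 29.8. Of the 11 immune genes, Ptprc, C1qa, Tyrobp, Cd74 and Adgre1 were at 0 in all 16 oocytes. C1qb had a count in 11 oocytes (up to 226.8 CPM), Csf1r in 8 (up to 8.87 CPM), Cd68 in 5 (up to 10.2 CPM), and C1qc, Fcer1g and Lyz2 in 1 each. MII NMN 1 and MII NMN 2 stood apart: they had 8 and 9 of the 12 oocyte markers with a count, against 12 in the other 14 oocytes. They detected 6400 and 5640 genes, and 43.0% and 33.2% of their counts were mitochondrial. MII NMN 2-1, of the same group, had 7704 genes and 6.18% mitochondrial counts. Titles name a batch 2 for 6 used oocytes numbered within it. Another 8 were read as a first batch, although 7 of their titles name no batch. MII NMN 2, whose title says batch 2 with no further number, and GV young 1, whose table also stands under a batch 2 title, were left unclear. The share of genes with a fractional count was 19.5 to 28.0% in the first batch and 11.9 to 14.6% in batch 2. It was 14.5% in GV young 1 and 29.0% in MII NMN 2.

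Parp2, the second DNA-break-dependent PARP, had the highest level of the 9 genes after Tnks2. Its mean was 16.8 ± 10.5 TPM (SD, n = 16 oocytes), above 68.9% of the filtered genes, and 15 of 16 oocytes had a count. Parp1, the main producer of poly(ADP-ribose) after DNA damage, followed at 9.04 ± 6.89 TPM with a count in 15 of 16. The SDs of these neighbours overlap. Parg averaged 2.80 TPM, Parp4, a component of cytoplasmic vault particles, 1.33 TPM, and Tnks 0.85 TPM. These 3 were in 13, 8 and 13 oocytes, and their ranges overlapped. Tnks2 averaged 38.6 TPM, but its short deposited length in the first batch raises the TPM: the mean was 68.1 ± 90.4 TPM in 8 first-batch oocytes and 2.13 ± 3.06 TPM in 6 batch 2 oocytes. Within batch 2, the mean of Tnks2 lay below those of Parp2 (18.7 ± 8.42 TPM) and Parp1 (8.45 ± 3.72 TPM).

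**Figure D1:**
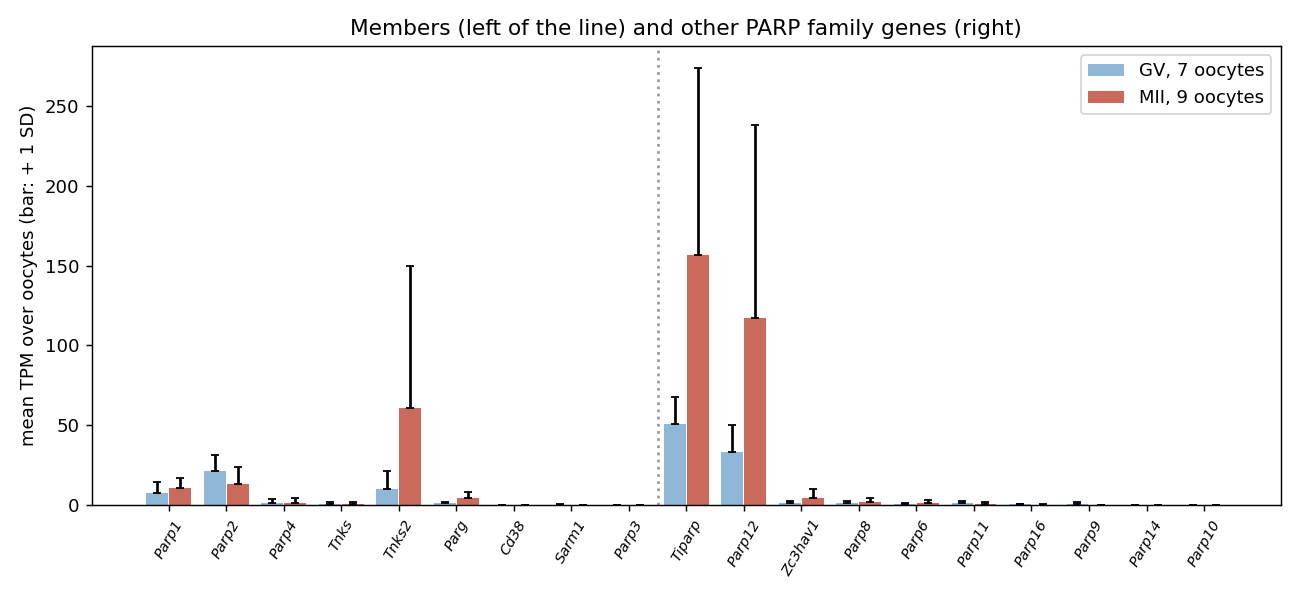
Mean TPM (vertical axis) in GV oocytes (7, blue) and MII oocytes (9, red), with bars for 1 SD between oocytes, for the 9 genes left of the dotted line and 10 other PARP family genes right of it. Tiparp and Parp12 stand above the other genes at both stages, and the wide Tnks2 bar in MII oocytes comes with a range of 0 to 287.4 TPM.

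Parp3, which joins PARP1 in repairing double-strand breaks, had no count in any oocyte, an upper limit of 0.0464 CPM for 3 counts in the pooled total of 64700926. It overlaps Rrp9 on the opposite strand, and the handling of strand is not stated. No Parp3 transcript shares a stretch of 50 bases with another gene on either strand. Cd38 had 3 counts in all, 1 in GV aged 1 and 2 in MII NMN 1. Its mRNA has 100 bases in stretches shared with 37 other genes, so those counts are uncertain. Sarm1 had 10 counts in GV NMN 2 (2.71 CPM) and none in the other 15 oocytes. The deposited length for those counts was 2497 bases, that of a Sarm1 transcript annotated as a retained intron. The protein-coding transcripts have 4083 and 4868 bases. Counts of Cd38 were thus found in 2 oocytes and of Sarm1 in 1, while Parp1 and Parp2 each had them in 15.

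Parp2 was lower in MII oocytes of NMN mice than in any aged control MII oocyte. Its levels in the 3 aged control MII oocytes were 35.5, 20.01 and 45.8 CPM, a mean of 33.8 ± 13.0 (SD, n = 3). In the 3 NMN MII oocytes they were 0, 0.310 and 11.9 CPM, a mean of 4.06 ± 6.76 (SD, n = 3). The 2 groups did not overlap, and the means differed 8.32-fold, a log2 ratio of -2.78 after adding 1 CPM. Pooled counts were 39 against 408, a 10.98-fold lower rate with an exact 95% interval of 7.90 to 15.7.

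The 2 NMN oocytes at the bottom were those with few genes and high mitochondrial shares, and the part of these in the result was not tested. Without either one of them the log2 ratio was -2.29 or -2.33, and without MII NMN 2-1 it was -4.91. Within batch 2 alone, 1 oocyte against 1, it was -1.86, from 11.9 CPM against 45.8, and within the first batch, 1 against 2, it was -4.85. Parp2 was 1 of 9 genes lower by the rule and 0 were higher. Of all genes, 11.3% were lower and 1.31% higher, and the median gene had a log2 ratio of -0.33. The share of the 9 genes is near that background. Lower counts per oocyte and a smaller share of the library's RNA cannot be told apart here.

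GV oocytes showed no such difference for Parp2. The aged control GV oocytes had 21.6 and 51.1 CPM, and the NMN GV oocytes had 29.5, 23.6 and 51.9 CPM. The groups overlapped fully, with a log2 ratio of -0.05. Whether the NMN difference in MII oocytes exceeds that in GV oocytes was not tested.

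Parp2 was also lower in MII than in GV oocytes of NMN mice, 8.62-fold (log2 ratio -2.83, no overlap), a comparison that shares the 3 NMN MII oocytes with the one above. The young GV oocytes had 82.9 and 30.3 CPM, the highest group mean (56.6 ± 37.2, SD, n = 2). The young MII oocytes had 23.6, 26.0 and 13.8 CPM, and the means differed 2.67-fold (log2 ratio -1.38, no overlap). Without GV young 1, the oocyte of unclear batch, that log2 ratio was -0.50. In aged controls the 2 stages overlapped and the log2 ratio was -0.10. By the rule Parp2 was thus lower at MII in young and in NMN mice. The young groups overlapped with library totals in place of TMM scaling (log2 ratio -1.28) and with TPM (-0.74), so that call was lost. The stage difference was not tested between groups.

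Parp1 was higher in MII than in GV oocytes of aged controls. The 2 GV oocytes had 7.89 and 10.3 CPM (9.10 ± 1.71, SD, n = 2). The 3 MII oocytes had 24.3, 16.0 and 34.5 CPM (24.9 ± 9.26, SD, n = 3). No oocytes overlapped, and the means differed 2.74-fold (log2 ratio 1.36). The log2 ratio was 1.25 within the first batch and 1.65 within batch 2.

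In young controls Parp1 varied from oocyte to oocyte. The GV oocytes had 0.772 and 13.0 CPM and the MII oocytes 28.7, 16.96 and 7.03 CPM, which overlapped. In batch 2 alone the young direction was the opposite, a log2 ratio of -0.81 for MII over GV. In NMN mice the GV oocytes had 22.9, 10.3 and 21.1 CPM, and the MII oocytes 30.4, 0 and 27.8 CPM. The 0 belonged to MII NMN 2. Parp1 counts were whole in 9 of 15 oocytes, and 1 of its retained-intron transcripts has 118 bases in stretches shared with 20 other genes.

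With NMN in GV oocytes, Parp1 did not meet the rule. All 3 NMN oocytes lay above both aged controls, the lowest at 10.315 CPM against 10.312 in the higher control, with means of 18.1 ± 6.80 (SD, n = 3) and 9.10 ± 1.71 CPM (SD, n = 2). The means differed 1.99-fold, and 0.92 on the log2 scale after adding 1 CPM. By TPM the groups overlapped, with a log2 ratio of 0.43, and with library totals the log2 ratio was 0.69. In MII oocytes the NMN and control groups overlapped (19.4 ± 16.9 against 24.9 ± 9.26 CPM, SD, n = 3 each). By age, Parp1 overlapped in both stages, with log2 ratios of 0.35 in GV and 0.48 in MII oocytes.

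**Figure D2:**
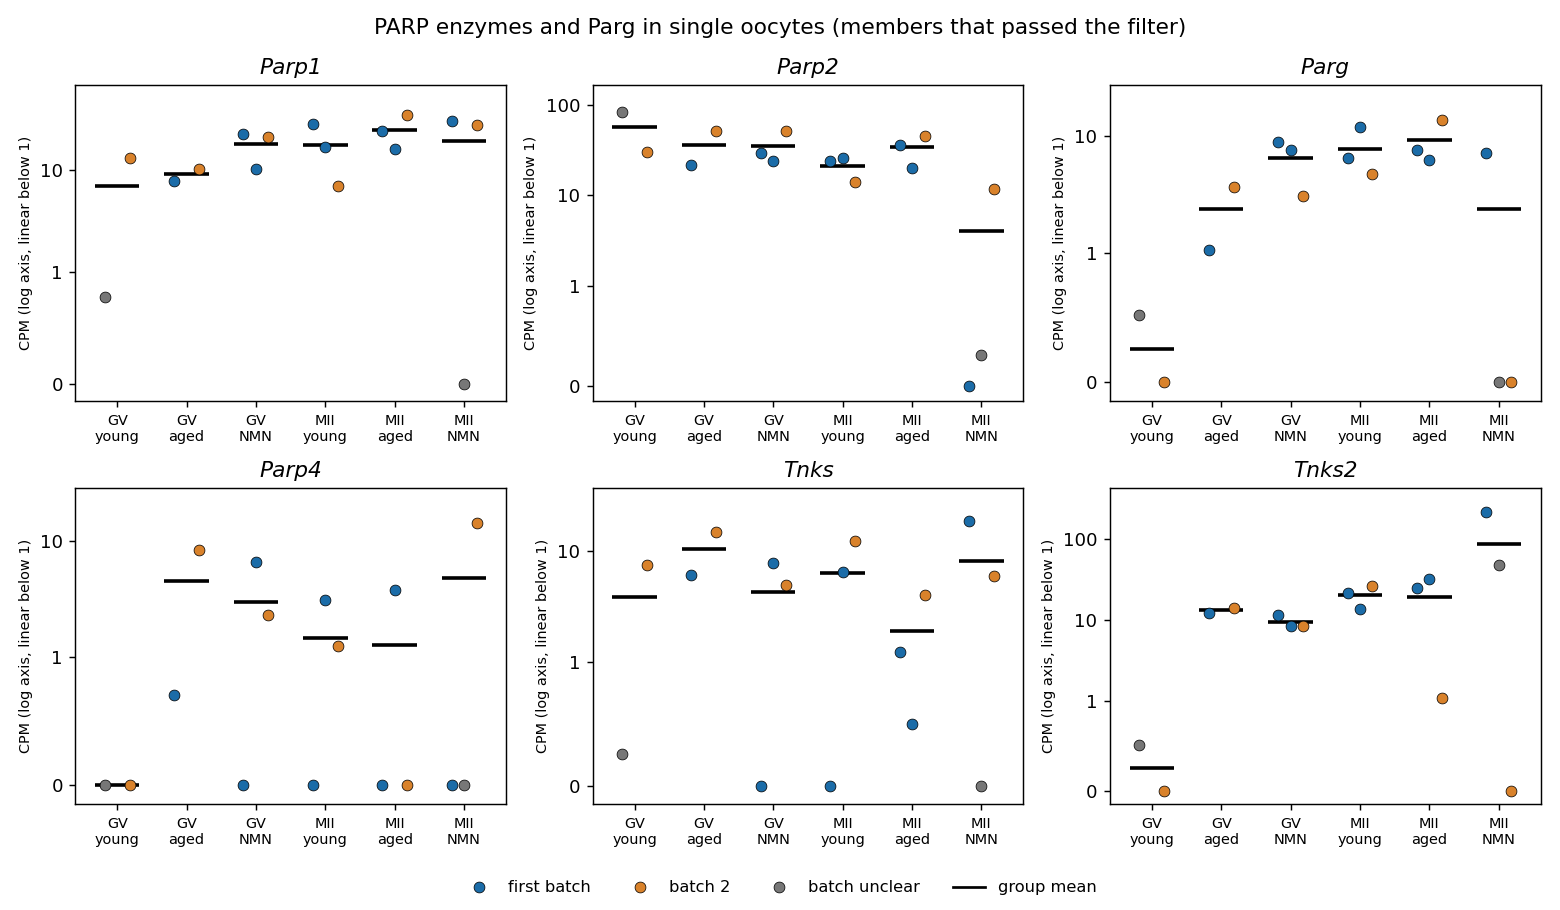
CPM in each oocyte (vertical log axis, linear below 1) for 6 genes over the 6 groups, coloured by the batch of the title, with a line at each group mean. Parp2 lies at 0 and 0.310 CPM in 2 of 3 MII NMN oocytes, and the Tnks2 values of 214.8 and 47.5 CPM in that group stand beside an oocyte at 0.

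Parg was low in GV oocytes and higher in MII oocytes of both control groups. In young GV oocytes it had 0.515 and 0 CPM, and in young MII oocytes 6.48, 12.0 and 4.75 CPM (7.74 ± 3.77, SD, n = 3). The means differed 30.1-fold, but the GV level rests on 2 counts: the ratio of pooled counts, 131 against 2, was 34.1 with an exact 95% interval of 9.24 to 284.2. In aged controls Parg had 1.05 and 3.68 CPM at GV and 7.57, 6.25 and 13.8 CPM at MII. The means differed 3.89-fold (log2 ratio 1.60), without overlap. Control GV oocytes with a count had a deposited Parg length of 3013 bases, that of a coding transcript of 9 exons. In control MII oocytes the length ran from 1062 to 3086 bases. No oocyte had that of the longest Parg transcript, 4413 bases. The part of the transcript model in the stage difference was not tested.

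The higher Parg level at MII was not seen in NMN mice. Their GV oocytes had 8.92, 7.60 and 3.08 CPM of Parg, and their MII oocytes 7.11, 0 and 0 CPM, with overlap. The oocytes at 0, MII NMN 2 and MII NMN 2-1, had totals of 4677567 and 3194174 counts. They had 5640 and 7704 genes detected, and 33.2% and 6.18% of their counts were mitochondrial. The part of these in the Parg values was not tested. Parg was 9.20-fold higher in aged than in young GV oocytes (log2 ratio 1.42, no overlap). Pooled counts were 21 against 2, a ratio of 9.50 with an interval of 2.32 to 83.5. Without GV aged 2-1 the log2 ratio was 0.71. In MII oocytes age made a log2 ratio of 0.22, and the groups overlapped.

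For the tankyrases the 2 genes behaved differently in the tables. Tnks had whole-number counts throughout, all on 1 deposited length of 6444 bases. In the GENCODE annotation its transcript, of 9163 bases, overlaps the antisense gene Gm9939 over 635 bases. Reads from there cannot be told apart without strand. Whether the deposited 6444 bases include that stretch was not tested. In aged controls Tnks had 6.14 and 14.98 CPM at GV and 1.23, 0.500 and 3.99 CPM at MII. That was 5.53-fold lower at MII (log2 ratio -1.99, no overlap), and the log2 ratios within the first batch and batch 2 were -1.94 and -1.68. In young oocytes Tnks had 0.257 and 7.57 CPM at GV and 0, 6.54 and 12.4 CPM at MII, and in NMN oocytes 0, 7.87 and 5.00 CPM at GV and 18.6, 0 and 5.93 CPM at MII. Both pairs of groups overlapped.

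Tnks2 took the extreme values of the 9 genes. MII NMN 1 had 214.8 CPM, MII NMN 2 had 47.5 CPM and MII NMN 2-1 had 0, so the group mean of 87.4 ± 112.8 (SD, n = 3) describes no oocyte in it. The aged control MII oocytes had 25.0, 32.5 and 1.09 CPM, and the young MII oocytes 21.3, 13.8 and 26.5 CPM. NMN GV oocytes had 11.4, 8.41 and 8.46 CPM, and aged GV oocytes had 12.3 and 14.2 CPM. The young GV oocytes had 0.515 and 0 CPM.

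By the rule, Tnks2 was higher in aged than in young GV oocytes, 51.5-fold, and in young MII than in young GV oocytes, 79.8-fold. Both folds rest on 2 counts in the young GV group. The pooled ratios were 57.9 with an exact 95% interval of 15.7 to 483.1 (128 counts against 2) and 82.9 with one of 22.8 to 687.8 (319 against 2). Within batch 2 the log2 ratios were 3.93 and 4.78, with 1 oocyte a group. No NMN comparison of Tnks2 met the rule. In GV oocytes NMN gave a log2 ratio of -0.45 without overlap, and 0.06 from TPM.

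What the Tnks2 counts stand for differed with the batch. In all 8 first-batch oocytes the deposited gene length was 622 to 887 bases and the count was fractional, 30.9 to 544.1. In the 4 batch 2 oocytes with a count it was 3176 to 6481 bases and the count was whole, 3 to 128. In GV NMN 1, MII young 1, MII NMN 1 and MII NMN 2 the length was 622 bases, that of the transcript whose shared end is printed above. The part of reads from the 54 other genes in these counts was not tested. With Tnks2 left out, the summed level of the other 8 genes in the 3 MII NMN oocytes was 56.9, 0.310 and 59.96 CPM, against 271.7, 47.8 and 59.96 CPM with it.

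**Figure D3:**
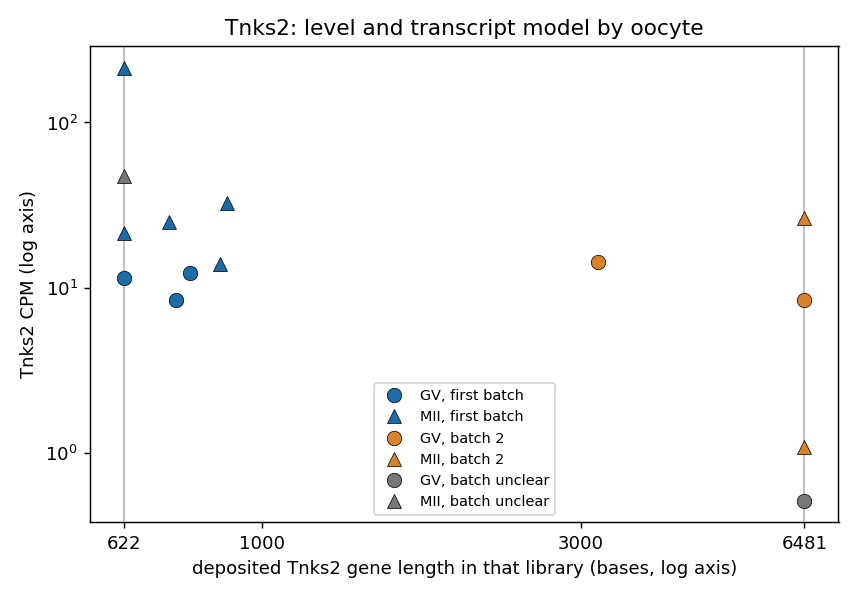
Tnks2 CPM (vertical log axis) against the gene length deposited for that oocyte (horizontal log axis, bases) in the 14 oocytes with a count, with circles for GV, triangles for MII and colours for batch. First-batch oocytes lie between 622 and 887 bases and batch 2 oocytes between 3176 and 6481, and grey lines mark 622 and 6481 bases.

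Parp4 was found in 8 of 16 oocytes. Both young GV oocytes had 0, and the aged GV oocytes had 0.701 and 8.35 CPM. Pooled counts were 38 against 0, and the exact 95% interval of their ratio began at 8.87. The lower aged value was 4 counts, and without GV aged 2-1 the log2 ratio was 0.77 rather than 2.47. The other groups had 0, 6.51 and 2.31 CPM (GV NMN), 0, 3.11 and 1.24 CPM (MII young), 0, 3.75 and 0 CPM (MII aged) and 0, 0 and 14.4 CPM (MII NMN). Each of these 4 groups held oocytes both with counts and at 0. Parp4 shares 347 bases with the antisense gene Gm16573.

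Read over all 9 genes, aged GV oocytes had 3 genes higher than young ones (Parp4, Tnks2 and Parg) and 0 lower. That stands beside 19.7% of all genes higher and 5.68% lower, with a median log2 ratio of 0.35 for the 9 genes and 0.29 for all genes. Aged GV oocytes also had more genes detected (13756 and 11687 against 10051 and 8804) and higher immune sums (236.9 and 14.2 against 9.27 and 8.87 CPM). The part of these in the result was not tested. The count moved without GV young 2-2, and with 5 CPM added to each mean in place of 1 it was 1. No share of all genes was computed for these settings. In MII oocytes age gave 0 of 9 in either direction, against 1.76% higher and 5.39% lower of all genes.

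NMN in GV oocytes also gave 0 of 9, against 2.61% higher and 5.39% lower. Leaving out 1 oocyte moved that count in some cases, and no share of all genes was computed for those. From GV to MII, young controls had 2 genes higher (Tnks2 and Parg) and 1 lower (Parp2), beside 16.6% and 15.4% of all genes. Aged controls had 2 higher (Parp1 and Parg) and 1 lower (Tnks), beside 8.32% and 25.9%. NMN mice had 0 higher and 1 lower (Parp2), beside 3.34% and 26.8%, where the median of all genes was -0.82 and that of the 9 genes 0.09. The comparisons by stage, age and NMN share groups of oocytes, so a gene counted in 2 of them is not counted on independent samples.

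**Figure D4:**
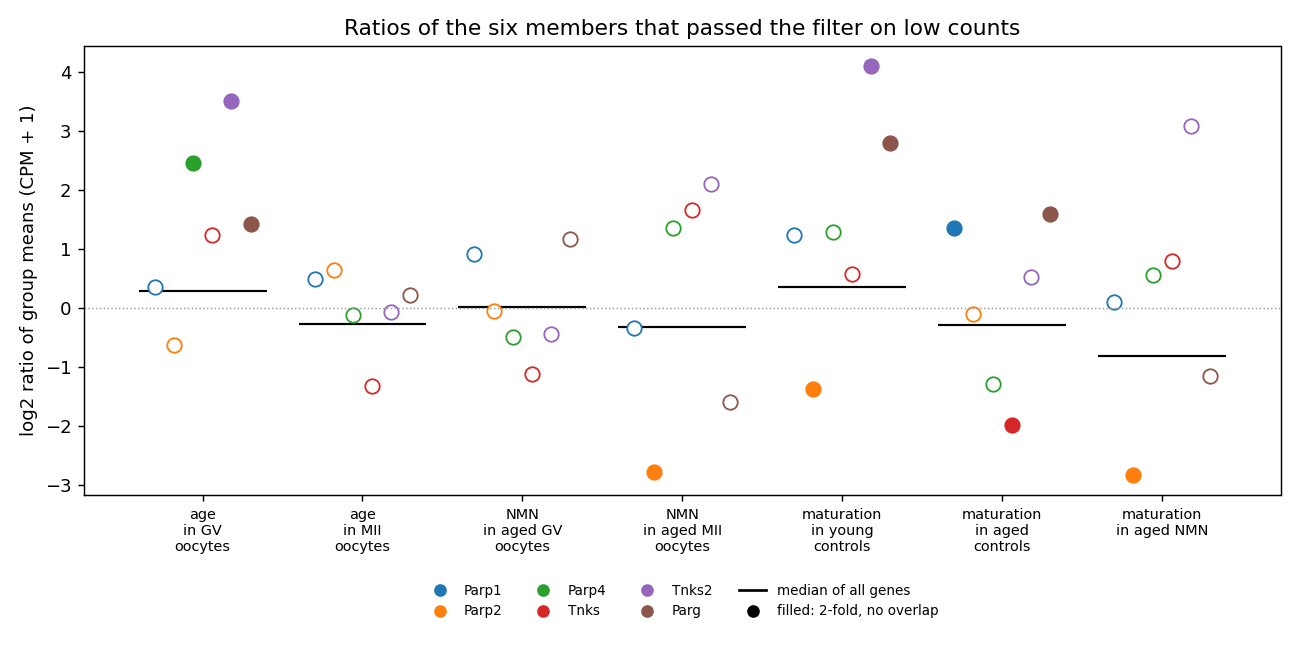
Log2 ratio of group means after adding 1 CPM (vertical axis) for 6 genes in 7 comparisons, filled where the ratio was at least 2-fold without overlap, with a line at the median of all 12161 genes. Parp2 is filled at -2.78 and -2.83 in the comparisons with MII NMN oocytes, and Tnks2 at 3.50 and 4.10 in those with young GV oocytes.

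The other PARP family enzymes, 10 genes of which 8 passed the filter, were led by mono-ADP-ribosyltransferases. Tiparp averaged 110.4 ± 101.9 TPM and Parp12 80.5 ± 98.5 TPM (SD, n = 16), and both had counts in all 16 oocytes, as did the zinc-finger antiviral protein gene Zc3hav1 at 3.23 ± 4.09 TPM. Parp10 had no count. The stage counts were 2 of 10 higher in young controls, 1 in aged controls and 1 in NMN mice, beside 16.6%, 8.32% and 3.34% of all genes. Tiparp was higher at MII than at GV in aged controls (508 ± 112 against 203 ± 19.5 CPM, SD, n = 3 and 2) and in NMN mice (747 ± 336 against 190 ± 53.8 CPM, SD, n = 3 each). In young controls Parp12 (430 ± 257 against 145 ± 15.1 CPM) and Zc3hav1 (27.9 ± 16.1 against 5.46 ± 4.45 CPM) were higher at MII. By NMN, Parp12 was lower in GV oocytes (5.39% of all genes), 41.8, 104 and 90.7 CPM against 111 and 206 CPM, and no gene of the list met the rule in MII oocytes. Age gave 0 of 10 in both stages.

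Among 11 genes that remove or read ADP-ribose, the genes meeting the rule between stages were lower at MII: 2 in young controls, 6 in aged controls and 4 in NMN mice, beside 15.4%, 25.9% and 26.8% of all genes. The young and NMN counts are near those shares. The medians of the list were 0 in young, -1.40 in aged and -1.72 in NMN mice, beside 0.35, -0.29 and -0.82 for all genes. Macrod2, which removes ADP-ribose from proteins, did not meet the rule between stages in any group. In young oocytes it had 166 ± 76.5 CPM at GV and 236 ± 134 CPM at MII (SD, n = 2 and 3). In aged controls the means went the other way, 297 ± 123 and 186 ± 56.5 CPM (SD, n = 2 and 3). So did those of NMN mice, 304 ± 132 and 159 ± 62.2 CPM (SD, n = 3 each). Nudt9, an ADP-ribose pyrophosphatase, was lower at MII in all 3 groups, with 19.8 and 14.3 CPM at GV and 0, 1.09 and 0.207 CPM at MII in young oocytes. In NMN oocytes it had 58.3, 48.9 and 30.4 CPM at GV and 0 in all 3 at MII. Adprh, which removes ADP-ribose from arginine, had 18.7, 17.4 and 36.9 CPM at GV and likewise 0 at MII in NMN mice. Age gave 2 higher in GV oocytes (19.7% of all genes), among them H2afy, whose macro domain binds ADP-ribose, at 18.8 and 26.0 CPM against 11.6 and 0. NMN gave 1 higher in GV oocytes, Macrod1 (2.61% of all genes), and 1 lower in MII oocytes (11.3%), and age in MII oocytes gave 0.

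Of 12 repair partners of PARP1 and PARP2, Hpf1, the cofactor that directs these enzymes to serine, was the most abundant at 1733 ± 886 TPM (SD, n = 16). NMN MII oocytes had 3 partners lower than aged controls and 0 higher, beside 11.3% and 1.31% of all genes. Xrcc1, the scaffold recruited to poly(ADP-ribose), had 7.92, 13.0 and 17.8 CPM in aged control MII oocytes and 0 in all 3 NMN ones. Aptx, which repairs aborted ligations, had 8.62, 8.50 and 14.5 CPM against 0 in all 3. Timeless, which binds PARP1, had 87.6, 162 and 59.2 CPM against 5.53, 1.86 and 30.3 CPM. These are the same 3 NMN oocytes in which Parp2 was low. MII NMN 1 and MII NMN 2 had 6400 and 5640 genes detected, and MII NMN 2-1 had 7704.

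In GV oocytes NMN gave 0 of the 12 partners. Age gave 3 higher and 1 lower in GV oocytes, beside 19.7% and 5.68% of all genes: Polb, the base-excision polymerase, had 87.2 and 56.2 CPM in aged against 14.4 and 3.39 CPM in young, and Lig3, the XRCC1-bound ligase, 10.3 and 2.21 against 28.6 and 42.8 CPM. Lig3 was the 1 partner lower with age in MII oocytes too (5.39% of all genes), with 0, 16.5 and 3.99 CPM against 29.5, 19.5 and 16.7 CPM. From GV to MII the counts were 3 higher and 1 lower in young (16.6% and 15.4% of all genes), 1 and 4 in aged (8.32% and 25.9%), and 0 and 3 in NMN mice (3.34% and 26.8%), which are near those shares. Aptx was lower at MII in each, and in NMN mice it had 173, 126 and 127 CPM at GV and 0 in all 3 at MII.

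Of 8 tankyrase partners, age gave 3 higher in GV oocytes (19.7% of all genes) and 0 in MII oocytes. Stage gave 2 higher in young controls (16.6% of all genes), 1 in aged controls (8.32%) and 0 in NMN mice (3.34%). Rnf146, the ligase that ubiquitylates targets carrying tankyrase-made ADP-ribose chains, had 9.01 and 13.3 CPM in young GV oocytes and 49.995, 20.7 and 431 CPM in young MII oocytes. Numa1, a spindle-pole protein that tankyrase modifies, had 12.5 and 3.19 CPM in aged GV and 22.5, 23.0 and 39.9 CPM in aged MII oocytes. NMN gave 1 lower in each stage, beside 5.39% of all genes at GV and 11.3% at MII. Terf1, the telomere protein through which tankyrase was named, had 316, 284 and 134 CPM in aged control MII oocytes and 30.0, 49.0 and 119.6 CPM in NMN ones. Axin2, a tankyrase substrate of the Wnt pathway, had 21.9 and 11.0 CPM in aged control and 2.97, 9.77 and 1.54 CPM in NMN GV oocytes.

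The other NAD glycohydrolases and ADP-ribosyltransferases were also scarce. Of 6 genes, Art3, Art5 and Art2b had no count, Bst1, the close relative of Cd38, averaged 0.059 TPM, and Art1 and Art4 0.838 and 0.524 TPM. Sirtuins, the NAD-dependent deacylases, summed to 4.37 to 211.9 CPM per oocyte, against 47.8 to 271.7 CPM for the 9 genes. Nampt, the rate-limiting enzyme of NAD salvage, averaged 0.768 ± 1.04 TPM and had a count in 11 of 16 oocytes, while Nmnat1, the nuclear enzyme that turns NMN into NAD, averaged 6.54 ± 4.62 TPM with a count in all 16 (SD, n = 16).

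Across the 16 oocytes, the genes whose log2(CPM + 1) moved most like Parp2 among 10434 named genes were Sem1 (Pearson r 0.949), Tent5c (0.948) and Cnot11 (0.948). For Tnks2 they were Mterf3 (0.890), Stk38 (0.870) and Crb3 (0.859). The points share libraries and depth, and these values are a description.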

How the data were processed

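RNA of single oocytes was measured by sequencing. Per the submitters' processing notes, the tools were Cufflinks and TopHat2 2.1.1 on mm10 (GRCm38), with Trim Galore 0.4.5 and FastQC 0.11.8 beside them. Which tool made the gene tables, and how strand was handled, is not given in the sources used here. Per the file headers, the authors deposited an expected count per gene, not normalised, and TPM, scaled by effective length and library. The deposited FPKM was not used.

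Expected counts were rounded, filtered with edgeR 4.0.16 (R 4.3.3) at a minimum count of 10 by group, and scaled with TMM factors to CPM. Depth was 2756181 to 5586894 counts per oocyte. Ratios are of group means after adding 1 CPM, and the rule for higher or lower needs a 2-fold ratio and no overlap. Pooled counts have exact 95% intervals. No test between groups was made, since each library is 1 oocyte and no animal is named. The genes and lists were chosen with earlier results of these data known. All 9 genes were named throughout. Of each other list, up to 3 genes per comparison were picked by largest ratio. These had to meet the rule and average 10 CPM or more in 1 of the groups. Not all of them are named in the text, for example Fen1, Axin1 and Tipin. Hpf1, Parp10, Nampt, Nmnat1 and the other genes given only as levels were chosen after their values were seen. Gene names and coordinates came from GENCODE vM21 (GRCm38), which matched 46488 of 47069 identifiers and differs from the annotation behind the tables, as the Tnks length of 6444 bases (9163 in GENCODE) shows. Shared stretches were found by matching 50 bases among GENCODE transcripts. Alternatives were other scalings, TPM, another added value, no filter, the low library kept, identical tables counted separately, each batch alone and leaving out each oocyte.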

Additional observations from a re-analysis of the deposited data

How the results depend on the processing

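Of 534 recomputed ratios of single genes, 470 stayed within 1 SD of the reported value, 64 moved and 0 of those meeting the rule changed direction. The number of the 9 genes meeting the rule was less stable. For NMN in MII oocytes it was 1, and 2 with library totals, 3 with TPM, 4 in batch 2 alone and 3 in the first batch alone. For NMN in GV oocytes it was 0, and 1 with the low library kept, 2 in batch 2 and 1 in the first batch. For age it was 3 in GV oocytes, and 1 with 5 CPM added and 0 with the low library kept; it was 0 in MII oocytes, and 6 in batch 2. From GV to MII it was 3 in aged controls, and 2 with 5 CPM added, 2 with the low library kept, 5 in batch 2 and 4 in the first batch. It was 3 in young controls, and 2 with library totals, 2 with TPM and 4 in batch 2. It was 1 in NMN mice, and 4 in batch 2 and 3 in the first batch. Batch 2 alone has 1 oocyte a group, where overlap cannot occur, which by construction raises the count. With the low library kept, none of the 9 genes could be higher in aged GV oocytes, since that library had no count for them. The cause of the remaining moves was not tested. No share of all genes was computed for the alternative counts, those without 1 oocyte included. Leaving out 1 oocyte gave 1 to 2 for NMN in MII, 0 to 2 for NMN in GV, 2 to 6 for age in GV (6 without GV young 2-2), 0 to 1 for age in MII (1 without MII young 1), 2 to 4 for stage in young, 3 to 4 in aged and 1 to 2 in NMN mice. For age in GV oocytes and for stage in young controls no comparison within the first batch could be made. Scaling moved the median of all genes: for NMN in MII oocytes it was -0.33 with TMM, -0.64 with library totals and -0.22 with RLE factors. With 3 counts worth 0.537 to 1.09 CPM before scaling, the values of Parp4, Tnks and Parg near or below 1 CPM rest on few counts. No paired analysis was possible because the labels name no animals, and oocytes of 1 batch were set side by side within each batch instead.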
